A study of Mus musculus with 6 samples.

Results

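The Bcl2 family survival genes examined here were 8 genes of the mitochondrial death pathway, namely Bcl2, Bcl2l1, Mcl1, Bcl2l11, Bbc3, Pmaip1, Bax and Bak1, taken by name from 21924 protein-coding mouse genes. Their H3K27ac elements were found by overlap: a merged peak region belonged to a gene when it touched the gene body or 10 kb on either side (GENCODE M21, mm10). This gave 87 of the 182956 regions that the 4 deposited peak lists formed once overlapping peaks were merged. Acetylation of lysine 27 on histone H3 (H3K27ac) marks active promoters and enhancers.

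The study sorted B16 F10 cells, an established mouse melanoma line, at day 5 of a model in which cells seeded at 100 cells/cm2 gain pigment over time. Cells with low side scatter, a flow cytometry measure that grows with melanin content, formed the low pigment (LP) group and those with high side scatter the high pigment (HP) group, each with 2 replicates. Both groups were the same line, with no treatment or genetic change named, precipitated with the same H3K27ac antibody, and an IgG library of each replicate number served the authors as the background. The question was whether the acetylated elements near survival genes differ between low and high pigmented cells.

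The Bcl2 family decides whether the outer mitochondrial membrane is opened during apoptosis. Guardians (Bcl2, Bcl2l1, which encodes Bcl-xL, and Mcl1) hold the membrane closed, BH3-only proteins (Bcl2l11, which encodes Bim, Bbc3, which encodes Puma, and Pmaip1, which encodes Noxa) bind and neutralise guardians, and the pore formers Bax and Bak1 open the membrane once released. In the melanocyte lineage Bcl2 is best known as a survival gene, and its loss in mice turns the coat grey.

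The level used throughout is the scaled pileup, which is the number of overlapping fragments at the highest summit of a region per 1000000 fragments of the library. Totals were 11467942 and 15353176 fragments in LP replicates 1 and 2, and 11483830 and 14254904 in HP replicates 1 and 2. The libraries differed across the whole genome: over the 12084 regions called in all 4 libraries, the median scaled pileup was 2.44 and 2.61 in LP against 3.92 and 6.59 in HP. The median over these regions of the log2 ratio of HP over LP was 0.92, and values for the survival genes are set beside it. More cells carrying the mark, more mark per cell and a better precipitation cannot be told apart in such libraries. The promoters of all 7 melanocyte marker genes on the list were called in all 4 libraries, and no promoter of the 11 keratinocyte, leukocyte, endothelial and fibroblast markers was. Of these 11, Epcam, Cdh1, Pecam1 and Col1a1 had a promoter region in 1 library each, and Pdgfra in 2. The Cdh1 level in LP replicate 1, at 1.13, was above those of Tyr and Mlana there, at 0.872 each.

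Of the 87 regions around the survival genes, 14 were called in all 4 libraries and could be tested. In limma with Benjamini-Hochberg (BH) adjustment over all 12084 regions, 3 of these 14 rose in HP at an adjusted p of at most 0.05, where 4.01% of all regions did, and none fell. The 3 were an intronic element of Bcl2, an element upstream of Bcl2l11 and an element upstream of Bak1. Thus 1 lay in a guardian, 1 upstream of a BH3-only gene and 1 upstream of a pore former. The Bcl2l11 and Bak1 elements cannot be assigned to these genes by position. None of the 7 promoter regions passed, where 2.76% of all regions within 1 kb of a coding start site did, and 1, that of Bak1, had an unadjusted limma p under 0.05, where 31.9% did. All 14 log2 ratios were above 0, as were 99.0% of all, and in 10 of the 14 both HP libraries lay above both LP libraries, against 74.8% of all regions. The median log2 ratio was 1.02 over the 14 regions and 0.92 over all regions.

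The median ratios of the promoters and of the other elements lay on different sides of that genome-wide median. The 7 promoter regions had a median log2 ratio of 0.65, with 2 of 7 above the median of all regions, and the 6 tested regions away from any coding start site a median of 1.76, with 5 of 6 above it. The medians over all regions were 0.89 within 1 kb of a coding start site and 1.05 farther away. Of the farther regions 7.67% were called higher in HP. The remaining tested region covers the promoter of a neighbouring gene, Ftl1. The contrast depends on the 1 kb cutoff. With 3 kb the called Bcl2l11 element would count as a promoter, and the 8 promoter regions then had a median of 0.77. The difference between the members' promoters and other elements was not tested.

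By level, averaged over the 4 libraries, the members spread over the upper part of all promoter regions of coding genes. The Mcl1 promoter exceeded 93.6% of them, Bbc3 92.6%, Bcl2 82.8%, Bcl2l1 80.6%, Bax 72.4%, Bcl2l11 62.2% and Bak1 50.6%. The rank of Bbc3 rests on a summit inside the gene, more than 5 kb from its start. Within single libraries the ranges of neighbours in this order overlapped.

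**Figure D1:**
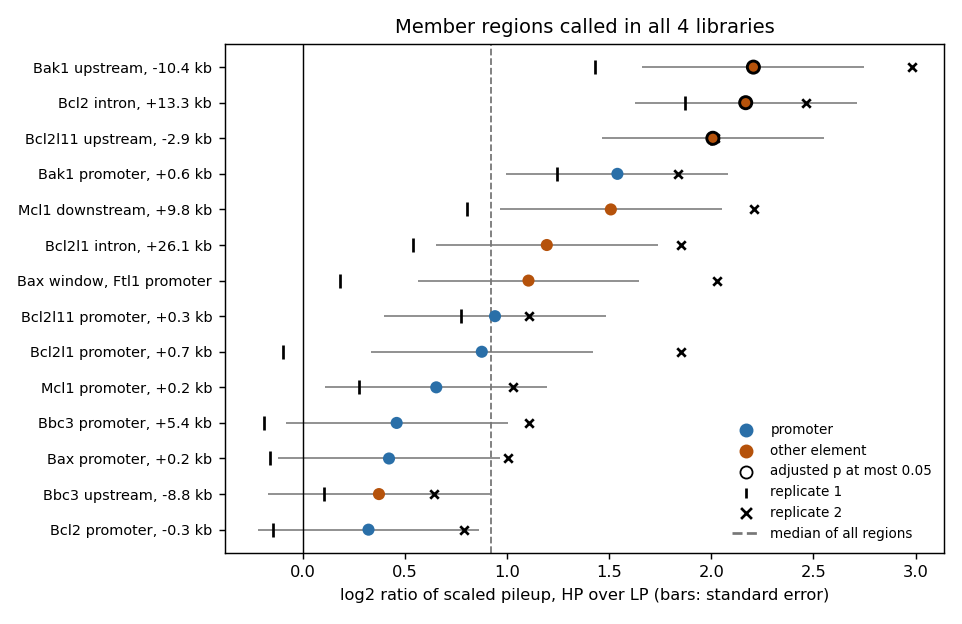
Log2 ratio of scaled pileup, HP over LP, on the horizontal axis for the 14 survival gene regions called in all 4 libraries, 1 row each; circles are the means with standard error bars (blue, promoters; brown, other elements; black rim, adjusted p of at most 0.05), ticks and crosses the ratios within replicates 1 and 2, and the dashed line the median of all regions at 0.92. The 3 rimmed circles lie between 2.01 and 2.21, and 5 of the 7 promoters lie left of the dashed line.

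Bcl2 (chr1:106538178-106714274, minus strand, 176.1 kb long) carried its main signal at the promoter, in a region at chr1:106713620-106715453 whose highest summit lay at -0.26 kb from the gene start. The scaled pileup there was 9.33 and 4.75 in LP against 8.45 and 8.21 in HP, which is 0.32 ± 0.54 (SE) as a log2 ratio (limma, BH-adjusted p = 0.584). The groups overlapped, because LP replicate 1 was the highest of the 4 libraries and LP replicate 2 the lowest.

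The picture differed inside the gene. A region in a Bcl2 intron at chr1:106699464-106702118, with its highest summit 13.3 kb downstream of the start, reached 0.785 and 0.521 in LP against 2.87 and 2.88 in HP, which are 9, 8, 33 and 41 overlapping fragments. Taken at the highest summit of each library, both HP levels stood far above both LP levels and were nearly equal to each other. The summits of the 2 HP libraries lay at different positions. The log2 ratio was 2.17 ± 0.54, a 4.50-fold higher level in HP (limma, BH-adjusted p = 0.0329), and it was 1.87 within replicate 1 and 2.46 within replicate 2. Only 0.199% of all tested regions had a log2 ratio as high. Enrichment over the IgG background, which the authors computed separately for each library, was 5.31- and 3.48-fold in LP against 14.5- and 20.6-fold in HP. It is computed from the same pileups, so it is not separate support. The called intervals differed as well, as the peaks in this region spanned 189 and 203 bp in LP replicate 1 and 218 bp in LP replicate 2, whereas they spanned 703, 250 and 821 bp in HP replicate 1 and 2458 bp, as a single peak, in HP replicate 2. The highest summit of HP replicate 1 lay at 12.8 kb. Its separate peak at 13.35 kb, near the summit of HP replicate 2, reached only 1.13, from 13 fragments. The LP levels of 0.785 and 0.521 were at 13.44 and 13.36 kb. The similar HP levels and the ratio of 1.87 within replicate 1 thus hold for the region and not for the 13.3 kb site.

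The reference sequences under the summits of the Bcl2 promoter and of this intronic element are shown because the first was high in every library and the second rose in HP. They are read from GRCm38 on the strand of the gene, outward from the highest summit. Capitals mark GC boxes (GGGCGG on either strand).
Bcl2 promoter, chr1:106714387-106714685, minus strand: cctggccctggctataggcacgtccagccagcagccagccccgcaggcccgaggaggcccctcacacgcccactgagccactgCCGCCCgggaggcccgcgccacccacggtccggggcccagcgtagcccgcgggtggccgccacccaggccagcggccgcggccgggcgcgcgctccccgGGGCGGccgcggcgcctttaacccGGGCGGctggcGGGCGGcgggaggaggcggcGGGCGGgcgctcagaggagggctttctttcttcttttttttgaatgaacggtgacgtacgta
Bcl2 intronic element, chr1:106700807-106701105, minus strand: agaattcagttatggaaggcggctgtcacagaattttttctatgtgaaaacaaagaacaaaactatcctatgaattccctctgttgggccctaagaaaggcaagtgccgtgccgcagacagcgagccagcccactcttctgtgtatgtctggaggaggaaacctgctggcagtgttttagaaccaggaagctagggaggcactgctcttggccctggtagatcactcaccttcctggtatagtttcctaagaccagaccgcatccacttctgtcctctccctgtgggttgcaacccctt
The promoter stretch was 75.2% G and C with 5 GC boxes. The intronic stretch was 50.2% G and C and held none of the 8 motifs searched.

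Relative to its own promoter, the intronic Bcl2 element stood at 8.41% and 11.0% in LP and at 34.0% and 35.0% in HP. This ratio is taken within each library and does not depend on the scaling between libraries. For HP replicate 1 it uses the summit at 12.79 kb. The groups did not overlap, although 2 libraries against 2 cannot give an exact permutation p below 0.333. In this measure they also did not overlap for the Bcl2l11 element and the Ftl1 promoter in the Bax window. They overlapped for the Bcl2l1, Mcl1, Bbc3 and Bak1 elements. No share over other genes was computed, so the separation cannot be called particular to Bcl2. The element had already been called by its ratio of HP over LP, so this is not separate support.

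**Figure D2:**
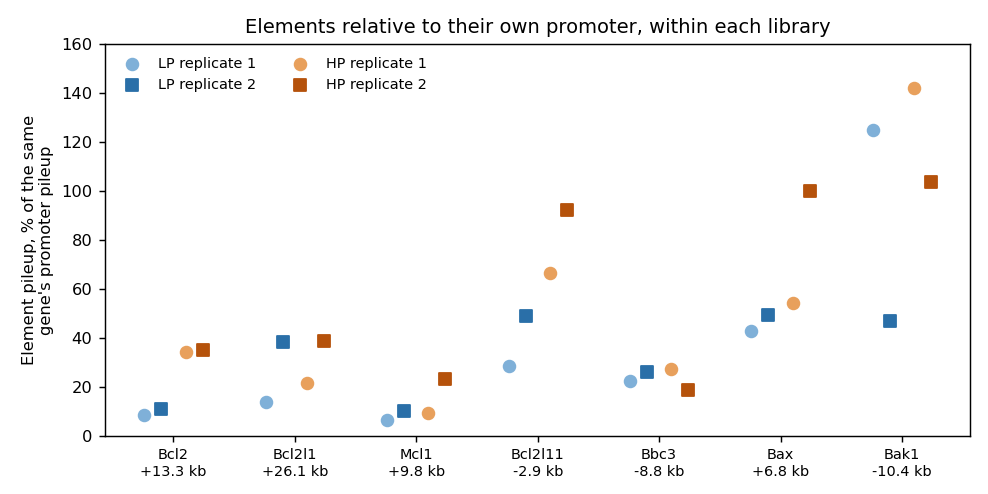
Summit pileup of each non-promoter element as a percentage of the promoter pileup of the same gene (vertical axis), in each of the 4 libraries (circles, replicate 1; squares, replicate 2; blue, LP; brown, HP), for the 7 elements called in all libraries; the Bax entry is the Ftl1 promoter in its window. The Bcl2 intron at 13.3 kb runs from 8.41% to 11.0% in LP and from 34.0% to 35.0% in HP, while the Bak1 element has an LP library at 125% and an HP library at 104%.

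Of the 25 regions in the Bcl2 window, 19 came from a single library, where 81.7% of all regions did. Both HP libraries and neither LP library had a region at 4.53 kb, with scaled pileups of 1.31 and 1.05, and regions at 84.7 kb, with 1.04 and 1.12, and at 85.4 kb, with 0.784 and 0.702. All 3 lie in introns. A further promoter-window region at 1.5 kb was called in LP replicate 2 at 1.24 and in HP at 1.57 and 3.30, but not in LP replicate 1.

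Bcl2l1 (chr2:152780668-152831728, minus strand), the guardian Bcl-xL, had a promoter region with scaled pileups of 6.89 and 3.39 in LP against 6.44 and 12.2 in HP. HP replicate 2 was the highest and LP replicate 2 the lowest, while the replicate 1 libraries nearly coincided with LP slightly above HP, so the groups overlapped. The log2 ratio was 0.88 ± 0.54 (limma, BH-adjusted p = 0.195).

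Inside Bcl2l1 the introns held most of the regions. Of the 14 regions in its window, 5 were called in both HP libraries and in at most 1 LP library, all of them intronic. Among all regions, 3.94% were called in both HP libraries alone. A further 2.94% were called in both HP libraries and LP replicate 2, and 0.682% in both HP libraries and LP replicate 1. The intronic region at 26.1 kb, the only one called in all libraries, measured 0.959 and 1.30 in LP against 1.39 and 4.70 in HP (log2 ratio 1.19 ± 0.54; limma, BH-adjusted p = 0.112). The groups did not overlap, but HP replicate 1 lay only just above LP replicate 2, and the highest summit of LP replicate 2 sat at 27.3 kb rather than 26.1 kb. Intronic regions at 11.8, 20.96 and 46.2 kb were called in both HP libraries and LP replicate 2. At 46.2 kb the levels were 1.17 in LP replicate 2 and 1.83 and 2.95 in HP. Regions at 19.7 kb (1.04 and 0.702) and 38.9 kb (0.784 and 0.842) were called in both HP libraries and neither LP library. Peaks in the Bcl2l1 window covered 1734 and 7146 bp in LP against 7506 and 17631 bp in HP.

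Mcl1 (chr3:95658788-95663176, plus strand), a short-lived guardian, had the highest promoter level among the guardians. The scaled pileup was 11.1 and 6.38 in LP against 13.4 and 13.0 in HP. Both HP libraries lay above both LP libraries, yet the log2 ratio of 0.65 ± 0.54 did not pass (limma, BH-adjusted p = 0.2996) and was smaller than the median of all regions.

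Downstream of Mcl1 a cluster of weaker regions lay between 6.18 and 9.75 kb from its start. The one at 9.75 kb was called in all libraries at 0.698 and 0.651 in LP against 1.22 and 3.02 in HP, with a log2 ratio of 1.51 ± 0.54 (limma, BH-adjusted p = 0.0666). The LP libraries were close together and HP replicate 2 was the highest. Both replicate 1 libraries had their summit at 9.21 or 9.11 kb rather than 9.75 kb. Regions at 6.18, 7.17 and 8.48 kb were each called in both HP libraries and 1 LP library, as was a region at -7.80 kb. A region over a Mcl1 exon at 4.05 kb was called only in the HP libraries, at 0.871 and 0.982.

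**Figure D3:**
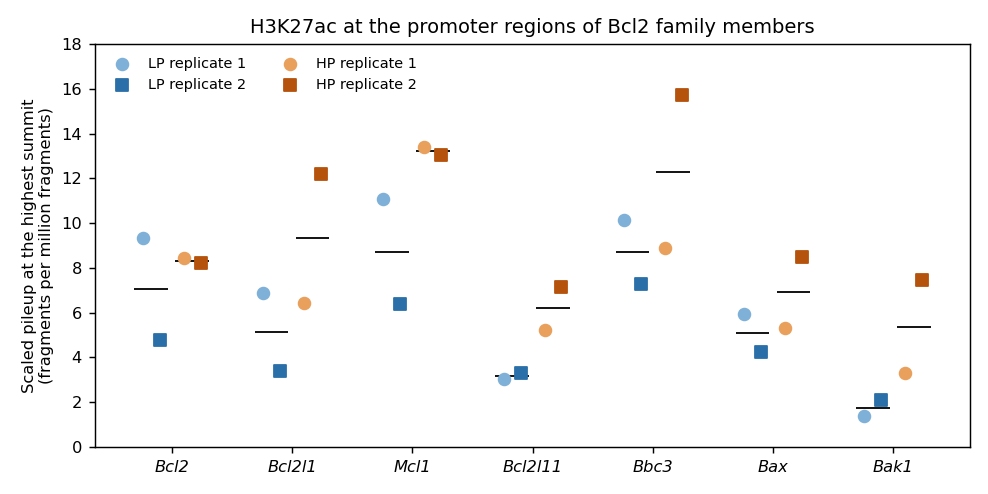
Scaled pileup at the highest summit of the promoter region (vertical axis, scaled to library size) for the 7 survival genes with such a region, in each library (circles, replicate 1; squares, replicate 2; blue, LP; brown, HP), with group means as lines. Both HP libraries lie above both LP libraries at Mcl1, Bcl2l11 and Bak1; at Bcl2, Bcl2l1, Bbc3 and Bax LP replicate 1 lies above HP replicate 1. Among all regions within 1 kb of a coding start site 73.9% have both HP above both LP.

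Bcl2l11 (chr2:128126038-128162547, plus strand) encodes Bim, a BH3-only protein that binds every guardian. Its promoter region gave 3.05 and 3.32 in LP against 5.22 and 7.16 in HP, with both HP libraries above both LP libraries. The log2 ratio of 0.94 ± 0.54 was close to that of all regions and did not pass (limma, BH-adjusted p = 0.172). Different summits stand behind these values, at 1.47 and 1.66 kb in LP and at 0.51 and 0.32 kb in HP. The region drops out when summits are restricted to within 1 kb of the highest.

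The element just upstream of Bcl2l11 rose in HP. This region, chr2:128122310-128125007 with its highest summit at -2.87 kb, reached 0.872 and 1.63 in LP against 3.48 and 6.59 in HP, which are 10, 25, 40 and 94 overlapping fragments. Each HP library exceeded both LP libraries, and the log2 ratios within replicates 1 and 2 were 2.00 and 2.02. The combined log2 ratio was 2.01 ± 0.54, or 4.02-fold (limma, BH-adjusted p = 0.0358). As a share of the Bcl2l11 promoter it stood at 28.6% and 49.0% in LP against 66.7% and 92.2% in HP. These did not overlap, but again no share over other genes was computed. The enrichment over IgG did overlap, at 3.32- and 7.81-fold in LP against 6.53- and 26.6-fold in HP. The summit lies in the last exon of the neighbouring gene Acoxl, so the signal cannot be assigned to either gene by position. With a promoter window of 3 kb in place of 1 kb the region would count as Bcl2l11 promoter.

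The stretch under the Bcl2l11 promoter summit, at 0.32 kb, is shown because it is the only survival gene summit with a match to a forkhead motif. Capitals mark that match (GTAAACA) and an E-box (CACGTG); the printed stretch begins at the first base after the untranslated exon.
Bcl2l11 promoter, chr2:128126253-128126507, plus strand: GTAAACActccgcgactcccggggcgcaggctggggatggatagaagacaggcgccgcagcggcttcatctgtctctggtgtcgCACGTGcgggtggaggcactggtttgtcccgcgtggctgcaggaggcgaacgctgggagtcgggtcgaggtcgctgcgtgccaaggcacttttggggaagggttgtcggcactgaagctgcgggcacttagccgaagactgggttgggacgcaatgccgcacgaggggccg
The forkhead match is therefore also the first bases of the intron.

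In the Bcl2l11 gene body little else was marked. An intronic region at 8.55 kb was called in both HP libraries at 0.697 and 0.912 and in neither LP library, and a region over an exon at 2.74 kb was called in both replicate 2 libraries at 0.977 in LP and 1.68 in HP.

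Bbc3 (chr7:16308393-16318205, plus strand) encodes Puma, a BH3-only protein induced by p53. It had the widest region among the members, 6883 bp at chr7:16308026-16314908, covering its promoter and much of the gene. The highest summit in every library lay between 5.39 and 5.42 kb from the start and not at the start itself. The level there was 10.1 and 7.29 in LP against 8.88 and 15.7 in HP, with LP replicate 1 above HP replicate 1, so the groups overlapped (log2 ratio 0.46 ± 0.54; limma, BH-adjusted p = 0.445). Nearer the start separate summits between 1.13 and 1.94 kb reached 4.62 and 2.996 in LP and 5.14 in HP replicate 1, whereas HP replicate 2 had a single peak across the region.

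The Bbc3 summit is shown because it falls on a coding exon and the intron that follows it. Capitals mark a GC box.
Bbc3 internal summit, chr7:16313633-16313931, plus strand: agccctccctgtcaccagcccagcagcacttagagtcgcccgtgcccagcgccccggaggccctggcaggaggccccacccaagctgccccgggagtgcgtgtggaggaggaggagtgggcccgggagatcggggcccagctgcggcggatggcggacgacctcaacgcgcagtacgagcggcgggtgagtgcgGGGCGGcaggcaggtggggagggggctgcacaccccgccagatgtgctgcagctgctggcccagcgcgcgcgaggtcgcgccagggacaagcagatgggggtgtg

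Upstream of Bbc3 a region at -8.80 kb measured 2.27 and 1.89 in LP against 2.44 and 2.95 in HP. The HP libraries were higher but by little (log2 ratio 0.37 ± 0.54; limma, BH-adjusted p = 0.528), and it was the only tested non-promoter element below the median of all regions. A weak region at -9.95 kb was called in both HP libraries, at 1.04 and 0.772, and in neither LP library.

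Pmaip1, the gene of the BH3-only protein Noxa on chromosome 18, had no promoter region in any of the 4 lists. Its window held 3 weak regions, each called in 1 library: 0.651 at -8.66 kb and 1.17 at 2.56 kb in LP replicate 2, and 0.871 at -5.84 kb in HP replicate 1. No comparison between LP and HP could be made for it, and a region that is not called may still hold signal under the authors' threshold.

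Bax (chr7:45461697-45466898, minus strand), the pore former that moves to mitochondria on activation, had promoter levels of 5.93 and 4.23 in LP against 5.31 and 8.49 in HP. LP replicate 1 exceeded HP replicate 1 and the groups overlapped (log2 ratio 0.42 ± 0.54; limma, BH-adjusted p = 0.479). The other strong region of its window, with its highest summit 6.81 kb from the Bax start, covered the promoter of Ftl1, a ferritin light chain gene, and reached 2.53 and 2.08 in LP against 2.87 and 8.49 in HP (log2 ratio 1.11; limma, BH-adjusted p = 0.128). It spanned 5431 bp, and its highest summit lay at 6.12 and 7.47 kb in LP and at 6.79 and 6.81 kb in HP. Bax had no region called in both HP and neither LP.

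Bak1 (chr17:27019810-27029009, minus strand), the pore former that resides on mitochondria, had the lowest promoter level of the 7 and the highest promoter ratio. The scaled pileup was 1.40 and 2.08 in LP against 3.31 and 7.44 in HP, so both HP libraries were above both LP libraries and HP replicate 2 stood apart. The log2 ratio of 1.54 ± 0.54 missed the threshold (limma, BH-adjusted p = 0.0624). The region is shared with a start site of the neighbouring gene Ggnbp1.

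The element upstream of Bak1 rose in HP. It lies at chr17:27037744-27041795, outside annotated coding genes, with its highest summit at -10.4 kb. The highest summit of every library lay beyond the 10 kb window, between -10.34 and -12.57 kb, and only the near part of the region touches it. The body of Ggnbp1 reaches a region at -5.78 kb and so comes nearer to the element than the Bak1 start does. The signal cannot be assigned to Bak1 by position. The level was 1.74 and 0.977 in LP against 4.70 and 7.72 in HP, from 20, 15, 54 and 110 overlapping fragments. Both HP libraries were well above both LP libraries, with a log2 ratio of 2.21 ± 0.54, or 4.61-fold (limma, BH-adjusted p = 0.0329), and ratios of 1.43 and 2.98 within replicates 1 and 2. Enrichment over IgG was 9.78- and 6.27-fold in LP against 24.4- and 45.9-fold in HP. It is computed from the same pileups, so it is not separate support, and no share over all regions was computed. In LP replicate 2 the highest summit of the region sat at -12.6 kb; restricted to summits within 1 kb of -10.4 kb, the log2 ratio was 2.26 (limma, BH-adjusted p = 0.0257). Against the Bak1 promoter the element stood at 125% and 46.9% in LP against 142% and 104% in HP, so the groups overlapped in this measure.

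The reference stretch at the Bak1 upstream summit is shown as the element with the highest ratio among the members. Capitals mark an E-box.
Bak1 upstream element, chr17:27039273-27039571, minus strand: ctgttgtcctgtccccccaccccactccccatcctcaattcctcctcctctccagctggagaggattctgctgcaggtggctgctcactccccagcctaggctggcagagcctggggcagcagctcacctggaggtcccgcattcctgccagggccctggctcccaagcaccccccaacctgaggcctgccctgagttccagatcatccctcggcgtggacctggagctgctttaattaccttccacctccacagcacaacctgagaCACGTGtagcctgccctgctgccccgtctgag

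**Figure D4:**
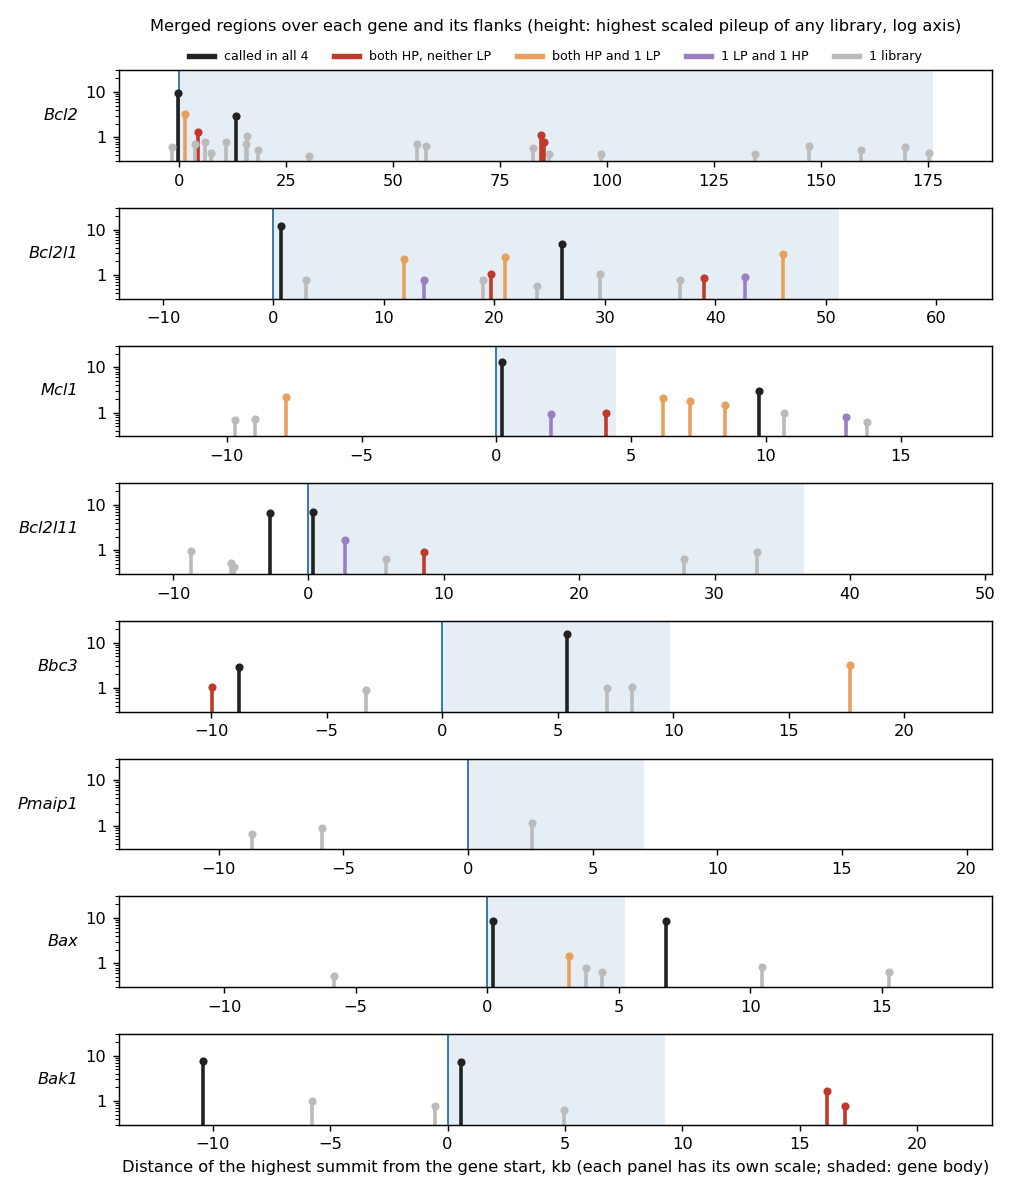
Positions of all 87 merged regions around the 8 survival genes, 1 panel a gene; the horizontal axis is the distance of the highest summit from the gene start in kb, with its own range in each panel, the shaded span is the gene body, and the height is the highest scaled pileup of any library on a log axis. Regions called in all 4 libraries (black) are the 7 promoter regions and 7 others, the 10 regions called in both HP and neither LP (red) are low, between 0.523 and 1.65 in the HP libraries, and Pmaip1 has 3 single-library regions.

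Regions called in both HP libraries and neither LP library numbered 10 around 6 of the 8 genes, or 11.5% of the 87. No region was called in both LP libraries and neither HP library. Over all merged regions these shares were 3.94% and 0.249%, and within 10 kb of the 9687 coding genes whose promoter region was called in all 4 libraries the first share was 5.23%. By position, 6 of the 10 lay in introns, 2 downstream, 1 upstream and 1 over an exon, and none at a promoter. Besides those given above, 2 lay at 16.2 and 16.9 kb beyond Bak1, within the body of Ggnbp1, with levels of 1.65 and 1.26 and of 0.523 and 0.772. The 10 are not all separate elements. Of these 2, one ends at chr17:27012101 and the other starts at 27012180. At Bcl2 one ends at chr1:106628882 and the next starts at 106629130. The Bbc3 one ends at chr7:16298755, beside a region from 16299092 that all 4 libraries called. All 10 were weak, with 6 to 19 overlapping fragments in an HP library, and the lowest pileup called anywhere was 5 or 6 in each library. When each replicate number was taken alone, 62.7% of the member regions of replicate 1 were called in HP and not in LP, against 44.8% of all regions, but 36.6% in replicate 2, against 43.4%. Replicate 1 thus gave a share above the background and replicate 2 one below it.

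A further 10 regions were called in both HP libraries and 1 LP library, and 5 in 1 LP and 1 HP library. For the first class the shares of all regions were 2.94% with LP replicate 2 and 0.682% with LP replicate 1. For the second they ran from 0.418% to 2.29% for each pair of libraries. Another 48 regions, or 55.2%, were called in 1 library only, where 81.7% of all regions were. Peaks around the 8 genes numbered 25 and 56 in LP against 64 and 54 in HP. Their total length was 15904 and 35906 bp in LP against 41945 and 67746 bp in HP, and the number of peaks overlapped between groups while the covered length did not. Over the whole genome the covered length was 18.9 and 30.3 Mb in LP against 31.9 and 43.9 Mb in HP, so it did not overlap there either.

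The other genes of the pathway followed the genome-wide shift. Of 32 further family members, caspases, caspase inhibitors, mitochondrial channels and partners, 26 had a promoter region, 23 had one called in all 4 libraries, and none of these passed in limma with Benjamini-Hochberg adjustment. At an unadjusted limma p under 0.05 there were 4, a smaller share than the 31.9% of all regions near coding start sites. All 23 log2 ratios were above 0, with a median of 0.88. The highest were Bcl2l2, the guardian Bcl-w, at 1.37 and Birc2, the ubiquitin ligase cIAP1, at 1.11. The lowest were Birc3, a close relative of Birc2, at 0.40 and Bid, the BH3-only protein cut by caspase-8, at 0.47. The Birc2 ratio was -0.22 within replicate 1 and 2.44 within replicate 2. The groups overlapped at Birc2 and Birc3 and did not at Bcl2l2 and Bid. No promoter region was called for Bcl2a1a, Bcl2a1b, Bcl2a1d, Bcl2l10, Hrk and Bcl2l14.

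Among all other coding genes, the promoters whose pattern over the 4 libraries lay nearest to the mean pattern of the 7 member promoters were those of Gtf2a2, Ifrd1 and Kpna4. Their Euclidean distances on the log2 scale were 0.013, 0.025 and 0.0331. The mean member pattern was -0.15 and -0.59 in LP against 0.09 and 0.66 in HP around its own average.

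Motifs were searched within 150 bases of the highest summit of each of the 14 tested regions, on both strands. A GC box (GGGCGG) was present in 6 of 14 windows, 4 of them at promoters, against 54.2% of all tested regions. The CCAAT box was present in 3 (16% of all), the E-box CACGTG in 2 (6.56%) and the forkhead motif GTAAACA in 1 (1.80%). None held the M-box TCATGTG (1.75%), the cyclic AMP response element TGACGTCA (0.853%), the AP-1 motif TGANTCA (4.25%) or a p53 decamer (6.28%). These are matches of letters in short windows and not measured binding.

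The 3 calls rest on the fit and on single libraries. All tested regions shared 1 standard error, 0.54 on the log2 scale, because limma estimated no difference in spread between regions. Centring each library on its median lowers every log2 ratio by 1.01 and left 0 of the 3 calls, with log2 ratios of 1.16 for Bcl2, 1.00 for Bcl2l11 and 1.20 for Bak1 after centring. Without HP replicate 1, 9 of 14 member regions were called higher, and so were 57.3% of all regions; HP is then a single library assumed to vary as LP does. Without LP replicate 1, LP replicate 2 or HP replicate 2 no region in the genome was called. In all 14 regions the ratio was larger within replicate 2 than within replicate 1, and 12 of 14 were highest in HP replicate 2. The shares of all regions with these traits were not computed. The median scaled pileup over all tested regions was also highest in HP replicate 2, at 6.59, against 3.92 in HP replicate 1 and 2.44 and 2.61 in LP. These counts are therefore not read as a trait of the survival genes.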

How the data were processed

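H3K27ac ChIP-seq of sorted LP and HP cells was analysed from the deposited peak lists. Per the labels and methods, the authors demultiplexed reads with bcl2fastq 2.20, trimmed them with Trimmomatic 0.33, aligned them to mm10 with Bowtie2 2.5.1 and called narrow peaks in each library with MACS (3.0.0b1 in the file headers) at a q-value of 0.05 with the IgG library that carries the same number as control. The labels give fixation in 1% formaldehyde, and the methods of the study state a higher concentration. The deposited summit pileup is a fragment coverage signal computed by the authors. The deposited fold enrichment is the ratio of that pileup to the control, and the deposited −log10 q-values are from the same run. No read counts were used, so the count-based comparison of the study could not be repeated.

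Peaks of the 4 lists that shared at least 1 bp were merged. The highest summit pileup of each library was divided by the number of fragments in the library, with no pseudocount. LP and HP were compared with limma 3.58.1 (R 4.3.3) over the 12084 regions called in all 4 libraries, with Benjamini-Hochberg adjustment and a threshold of 0.05. The fit was run on simulated data with independent noise of the fitted spread, which checked only that planted changes were estimated correctly on average. The simulation held no library-wide shift, so it cannot bear on the 3 calls. Regions called in fewer libraries had no test. Nothing states that replicates were separate cultures, so p-values measure the spread between these libraries, which may be technical. The labels state equal DNA input within each replicate set, so the replicate number was also fitted as a block; deviations of same-numbered libraries correlated at 0.0153 over regions. Promoters were regions within 1 kb of a start site of a protein-coding transcript in GENCODE M21, whose build (GRCm38) is mm10. Introns were the rest of the gene body free of coding-transcript exons. Sequences were read from GRCm38.p6 with pysam 0.24.0; 12080 of the tested regions lay on assembled chromosomes and served for motif shares. Named genes were the 8 members, the extremes of 32 pathway genes, the 3 nearest promoter patterns and each member region called in both libraries of 1 group alone. The members and lists were chosen with earlier results of these data known.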

Additional observations from a re-analysis of the deposited data

How the results depend on the processing

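The count of member regions called higher in HP was 3, and also 3 with the replicate block, with a peak q-value of 0.01 and with summits within 1 kb of the highest (chosen after seeing the data, as was the share around coding genes with a called promoter); the block changed no call among the members, with adjusted p-values of 0.0468 for the Bcl2 intron and the Bak1 element and 0.0492 for the Bcl2l11 element, though calls over all regions went from 485 to 88. The count was 0 after centring each library on its median, quantile normalisation, scaling by mean fragment length (adjusted p-values of 0.0532 to 0.0552) and averaging summits. It was 1 with no flank and 5 with 50 kb, and 0 to 9 without single libraries. Over all regions the calls were 0 after centring, quantile normalisation or averaging, 9 with fragment length, 6930 without HP replicate 1 and 0 without any other library.

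Promoter log2 ratios turned negative after centring at Bcl2 (-0.69), Bcl2l1 (-0.13), Mcl1 (-0.36), Bcl2l11 (-0.0698), Bbc3 (-0.55) and Bax (-0.59), and after quantile normalisation at Bcl2 (-0.49), Mcl1 (-0.0495), Bcl2l11 (-0.0414), Bbc3 (-0.30) and Bax (-0.46); they are then relative to the other regions. Leaving out libraries or replicates gave -0.16 to 0.81 for Bcl2 (-0.14 in replicate 1 alone), -0.10 to 1.85 for Bcl2l1, 0.26 to 1.05 for Mcl1, 0.71 to 1.17 for Bcl2l11, -0.19 to 1.11 for Bbc3, -0.16 to 1.00 for Bax and 0.96 to 2.12 for Bak1; without HP replicate 1 the promoters of Bcl2l1, Bcl2l11 and Bak1 passed. The median over member regions stayed between 0.01 and 1.84. Regions called in both HP and neither LP numbered 7 of 58 with no flank (12.1%) and 14 of 190 with 50 kb (7.37%), against 3.94% of all regions. With a q-value of 0.01 they numbered 9 of 80 (11.2%), against 4.74% of all regions. The share thus fell with the wider window although the count rose. When 1 replicate number decided they numbered 26 to 32, with the shares given above. The median over promoter regions turned to -0.36 after centring and -0.0495 after quantile normalisation, and the intronic median of 1.68 moved to 0.67 under both (also chosen after seeing the data); both moved by less than the spread between replicates with a 3 kb promoter window or the start sites of all transcripts. The cause was not tested. Pileups of 6 to 19 fragments limit the weak regions.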
